A study of Mus musculus with 2 samples.

Results

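The genes described here are the 4 surfactant protein genes of the mouse, Sftpa1, Sftpb, Sftpc and Sftpd, and the genes of 2 proteases that mature surfactant proteins, Napsa and Ctsh. They were chosen by symbol for these roles, and each matched 1 row, 6 of the 24369 rows of the deposited table. The libraries came from alveolar type 2 (AT2) cells, also called type II pneumocytes, sorted from the lungs of mice of strain C57BL6 and genotype WT (wild type). The group at 28 days after birth (P28) had 1 library, and so had the group at 7 days (P07). The labels put no treatment, transgene or reporter on either group, and neither the sort markers nor the number of mice behind a library is given in the sources used. With 1 library per age there is no replicate error and no p-value, so "higher" and "lower" compare these 2 libraries.

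Pulmonary surfactant is a film of phospholipid and protein that lowers surface tension in the alveoli, and AT2 cells make, store and recycle it. Surfactant proteins B and C are small hydrophobic peptides that spread the lipid, and both are cut out of larger precursors on the way to lamellar bodies, the organelles that store surfactant. Napsin A, an aspartic protease, and cathepsin H, a cysteine protease, take part in that cutting. Surfactant proteins A and D are collectins, secreted lectins with a collagen-like stalk that bind microbes and lipid. In the mouse lung Sftpc is a marker of AT2 cells, while Sftpa1, Sftpb and Sftpd are also transcribed in club cells of the airway.

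Values are RPKM, the reads of a gene divided by its length and by the depth of the library. The low values put the reads behind that scaling at about 24500000 at P28 and 17600000 at P07, and the summed RPKM was 143071 and 108758. Each interval below is an exact 95% counting interval made from the read numbers those steps give, and it covers counting error only. Xist had 0.245 RPKM at P28 and 52.7 at P07, while the Y-linked gene Ddx3y had 4.01 and 0, a pattern that mice of opposite sex would give, so an effect of age and one of sex cannot be told apart here.

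The coding bases of Sftpc show what sets its product apart. The longest run of codons for valine, leucine or isoleucine in the Sftpc-201 transcript of GENCODE M21 spans codons 36 to 51 of 193, in the part that becomes the mature peptide. It is printed with the valine codons (GTN) in capitals, 11 of the 16 codons.
Sftpc: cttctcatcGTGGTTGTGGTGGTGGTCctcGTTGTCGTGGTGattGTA

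Promoters are shown for Sftpb and Sftpa1, the lowest and the highest of the 4 surfactant protein genes by ratio between the ages, 300 bases each that span the start of the gene in RefSeq (GRCm38.p6). They were the 2 of 6 genes with a sequence in the promoter table used. Capitals mark matches, on either strand, to short motifs of factors known to act on these genes. The motif of NKX2-1 was searched as CTCAAG. The motif of FOXA was searched in 2 forms, with TGTTTAC as the first form and TGTTTGC as the second form. The motif of C/EBP was searched as TTGCNNAA. That of GATA factors was searched as AGATAA, and the TATA box as TATAAA. No match overlapped another. The Sftpa1 stretch is chr14:41131538-41131837 and the Sftpb stretch chr6:72304360-72304659, both on the plus strand.
Sftpa1: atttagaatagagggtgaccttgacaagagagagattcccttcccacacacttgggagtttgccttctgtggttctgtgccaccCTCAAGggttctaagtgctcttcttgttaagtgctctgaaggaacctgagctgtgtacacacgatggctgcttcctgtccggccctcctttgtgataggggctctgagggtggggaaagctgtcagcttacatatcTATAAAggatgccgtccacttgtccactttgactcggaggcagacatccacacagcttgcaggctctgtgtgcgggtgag
Sftpb: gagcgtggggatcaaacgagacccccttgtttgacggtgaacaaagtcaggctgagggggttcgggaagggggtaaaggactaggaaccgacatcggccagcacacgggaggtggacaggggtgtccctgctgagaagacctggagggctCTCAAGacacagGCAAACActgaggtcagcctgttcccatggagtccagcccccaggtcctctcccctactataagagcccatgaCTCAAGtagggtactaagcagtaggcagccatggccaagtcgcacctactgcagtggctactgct

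The Sftpa1 stretch held the NKX2-1 motif at bases 85 to 90 and the TATA box at bases 221 to 226. The Sftpb stretch held the NKX2-1 motif at bases 151 to 156 and again at bases 236 to 241, and the second FOXA form, on the opposite strand, at bases 163 to 169. Of 32817 promoters of this length, 15.9% held the NKX2-1 motif, 5.06% the second FOXA form and 13.6% the TATA box. The first FOXA form, the C/EBP motif and the GATA motif were in 3.65%, 10.8% and 11.2% of promoters and had no match in these windows. A match is a description of the letters and not a binding site.

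All 4 surfactant protein genes had more RPKM at P28 than at P07, by 1.45-fold to 2.35-fold, and their log2 ratios stayed above 0 under every scaling tried. The protease genes had ratios of 1.10 (Napsa) and 0.823 (Ctsh). Of the 6 genes, 1 (Sftpa1) was at least 2-fold higher at P28 on the scale of log2(RPKM + 1), and 0 were at least 2-fold lower. With both libraries rescaled to the same summed RPKM, Sftpa1 had a log2 ratio of 0.84 and 0 of the 6 were called. Over the 9653 genes that reached 1 RPKM in either library (called measured below), 1.18% were called higher and 1.96% lower. All 6 genes exceeded 100 RPKM in both libraries. Among the 115 genes that reached 100 RPKM in either library, 8.7% were called higher and 1.74% lower. The median log2 ratio was 0.69 over the 6 genes, 0.12 over those 115 and -0.08 over all 9653. In the same libraries 15 club cell markers summed to 20470 RPKM at P28 and 8082 at P07. In bulk RNA fewer cells of a type and less RNA per cell cannot be told apart.

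**Figure D1:**
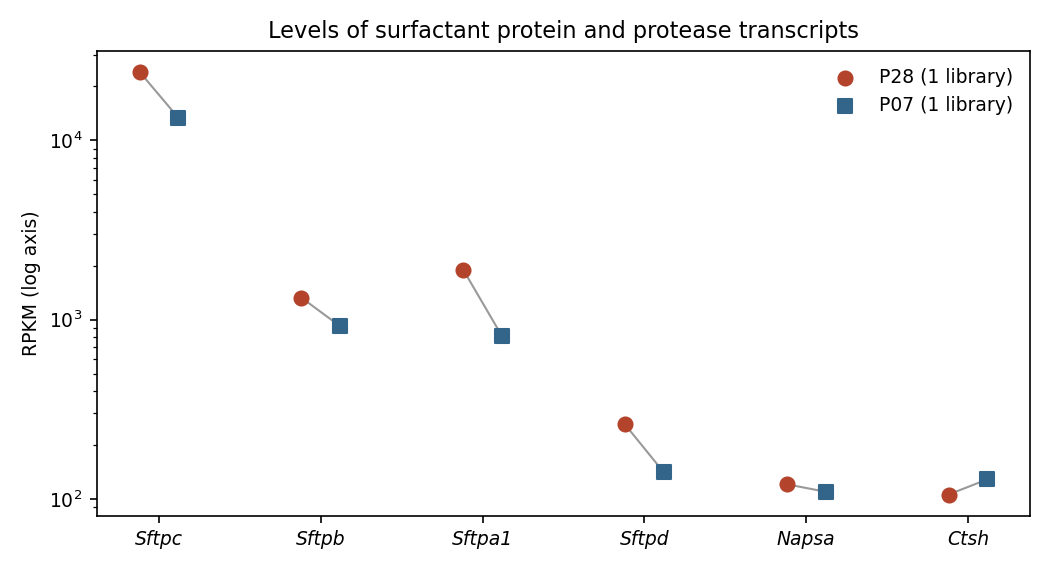
RPKM (log axis) of each gene in the P28 library (circles) and the P07 library (squares), 1 point per library. Sftpc stood at 24085 and 13343 RPKM, above every other gene shown, and Ctsh alone had its lower value at P28.

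Sftpc, on chromosome 14 (70520949 to 70524081 in GRCm38, minus strand, 6 exons in Sftpc-201), had 24085 RPKM at P28 and 13343 RPKM at P07. It was the most abundant row of both libraries and held 16.8% of the summed RPKM at P28 and 12.3% at P07. Its ratio was 1.81 (interval 1.80 to 1.82), a log2 ratio of 0.85, and 175 of the 9653 genes had a larger one. About 438100 reads at P28 and 174300 at P07 stood behind these values, so counting error is small beside the difference between the libraries.

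Sftpb, the gene of a surfactant protein whose loss is lethal to newborn mice, lies on chromosome 6 (72304610 to 72314371, plus strand). It had 1326 RPKM at P28 and 917 at P07, and ranked 8 in both libraries. Its ratio of 1.45 (1.42 to 1.47) and log2 ratio of 0.53 were the smallest of the 4 surfactant protein genes. It held 0.926% of the summed RPKM at P28 and 0.843% at P07.

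Sftpa1, the gene of the collectin SP-A, lies on chromosome 14 (41131782 to 41136452, plus strand). It had 1900 RPKM at P28 and 809 at P07, ranking 5 and 9. Its ratio was 2.35 (2.32 to 2.38) and its log2 ratio 1.23, with 67 of the 9653 genes above it. Of the 115 abundant genes, 6 had a larger log2 ratio. The annotated transcripts of Sftpa1 are 851 and 2854 bases long. Its level relative to other genes thus depends on the length the authors divided by, which no source used here gives. Its ratio between libraries does not, provided that 1 length was used for both.

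Sftpd, the gene of the collectin SP-D, lies on the same chromosome (41172214 to 41185149, minus strand), 35761 bases from Sftpa1. It had 260 RPKM at P28 and 141 at P07, ranking 29 and 50. Its ratio was 1.85 (1.78 to 1.92) and its log2 ratio 0.88, just under the 2-fold line. Mbl1, a liver collectin whose gene lies between Sftpa1 and Sftpd, had 0.441 RPKM at P28 and 0.738 at P07. Within this collectin cluster the transcripts of the surfactant collectins were thus above 100 RPKM in both libraries and those of Mbl1 below 1 RPKM.

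Napsa, the gene of napsin A, lies on chromosome 7 (44572380 to 44586862, plus strand). It had 121 RPKM at P28 and 110 at P07, ranking 76 and 85. Its ratio was 1.10 (1.04 to 1.17) and its log2 ratio 0.14. With both libraries rescaled to the same summed RPKM the log2 ratio was -0.26, so the scaling decides the direction of Napsa. An antisense gene, Gm15396, overlaps Napsa, and no source says whether strand was used in counting, so reads of this pair cannot be told apart.

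Ctsh, the gene of cathepsin H, lies on chromosome 9 (90054152 to 90076089, plus strand). It had 106 RPKM at P28 and 128 at P07, ranking 98 and 62, and was the only 1 of the 6 with less RPKM at P28. Its ratio was 0.823 (0.777 to 0.872) and its log2 ratio -0.28, below zero under all 7 settings of pseudocount and scaling. Its log2 ratio exceeded that of 25.6% of the 9653 genes, against 75.2% for Napsa and at least 94.5% for each surfactant protein gene. The members stood less far out among the 115 abundant genes. Of these, 15 had a larger log2 ratio than Sftpd, 17 than Sftpc and 31 than Sftpb. For Napsa the number was 56 and for Ctsh 99.

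The libraries differ in composition, which bears on every one of these ratios. The 10 most abundant rows held 44.0% of the summed RPKM at P28 and 27.9% at P07. Rescaling to the same total shifted the median over all measured genes by -0.29 on the log2 scale. On that scale Sftpa1 had a log2 ratio of 0.84, Sftpd 0.49, Sftpc 0.46, Sftpb 0.14, Napsa -0.26 and Ctsh -0.67, and none reached 2-fold. The split of calls over all genes became 65 higher and 443 lower, 12.8% higher, in place of 114 and 189, 37.6% higher. With the median log2 ratio set to 0 it was 144 and 151, 48.8% higher. The order of the 6 genes is the same under every scaling, since a scaling moves all of them together.

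**Figure D2:**
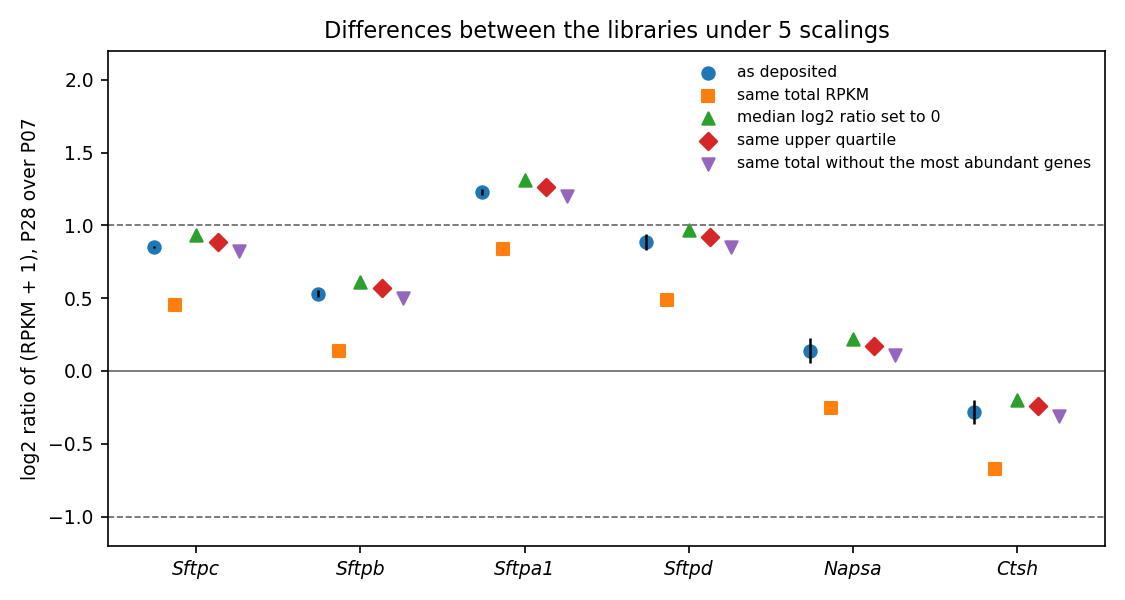
Log2 ratio of (RPKM + 1), P28 over P07, for each gene as deposited (circles, with the 95% counting interval as a bar) and under 4 other scalings. Dashed lines mark 2-fold. Sftpa1 lies above the upper dashed line except with the same total RPKM, where it has 0.84, and Napsa falls below 0 on that scaling alone.

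A ratio between 2 genes of the same library does not depend on how the library was scaled. By this measure Sftpc held nearly the same share of the surfactant protein transcripts at both ages, and both proteases were lower per unit of Sftpc at P28. Of the summed RPKM of the 4 surfactant protein genes, Sftpc held 87.4% at P28 and 87.7% at P07. Sftpa1 held 6.89% and 5.32%, Sftpb 4.81% and 6.03%, and Sftpd 0.943% and 0.924%. By RPKM Sftpa1 was thus above Sftpb at P28 and below it at P07, with a ratio of 1.43 at P28 and 0.882 at P07. That ratio changed by 1.62-fold (1.59 to 1.66). The shares, and which of 2 genes stands higher within a library, depend on the transcript lengths divided by, which no source used here gives. The collectins also differed from each other, since Sftpa1 stood at 7.31 times Sftpd at P28 and 5.76 times at P07, a change of 1.27-fold (1.22 to 1.32).

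Relative to Sftpc, Sftpa1 was at 7.89% at P28 and 6.06% at P07, a change of 1.3-fold (1.28 to 1.32). Sftpb was at 5.50% and 6.87%, a change of 0.801 (0.787 to 0.815). Sftpd was at 1.08% and 1.05%, and the interval of its change, 0.987 to 1.06, included 1. By counting error alone, the proportion of Sftpb to Sftpc thus differed between these libraries, while that of Sftpd to Sftpc could not be told apart. The spread between replicates was not measured, so neither result extends beyond these libraries.

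Transcripts of both proteases were lower at P28 relative to those of Sftpc and Sftpb, and protein was not measured. Napsa itself had a ratio of 1.10 between the libraries. Relative to Abca3, a lamellar body gene, the change was 1.04 (0.970 to 1.12) for Napsa and 0.780 (0.727 to 0.836) for Ctsh. Napsa stood at 0.501% of Sftpc at P28 and 0.821% at P07, a change of 0.610 (0.574 to 0.648). Ctsh stood at 0.439% of Sftpc at P28 and 0.962% at P07, a change of 0.456 (0.430 to 0.483). Read the other way, there were 200 RPKM of Sftpc for each RPKM of Napsa at P28 and 122 at P07, and 228 for each RPKM of Ctsh at P28 and 104 at P07. For Sftpb the numbers were 11 and 8.37 per RPKM of Napsa, and 12.5 and 7.14 per RPKM of Ctsh. The proteases also changed relative to each other, with Napsa at 1.14 times Ctsh at P28 and 0.853 times at P07. That is a change of 1.34-fold (1.23 to 1.45).

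**Figure D3:**
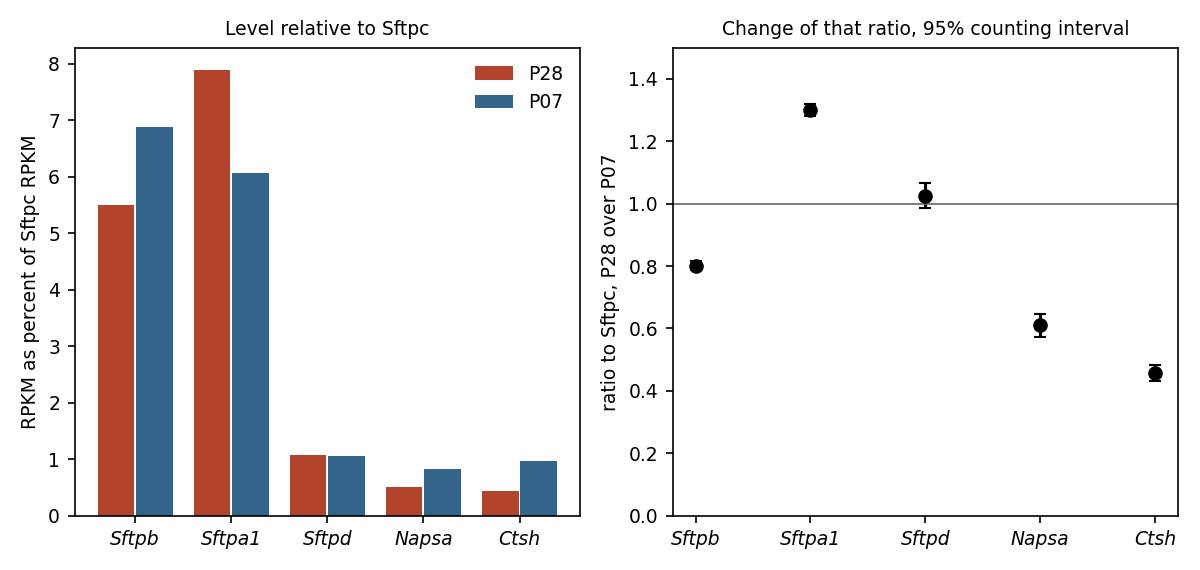
Left, RPKM of each gene as a percent of Sftpc RPKM in the same library, P28 bars left of P07 bars. Right, the ratio of those values, P28 over P07, with its exact 95% counting interval. Sftpa1 lies above 1, the interval of Sftpd spans 1, and Sftpb, Napsa and Ctsh lie below 1.

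The genes with the closest log2 ratio were sought among the 78 other genes that reached 100 RPKM in both libraries. With only 2 libraries, likeness here means a similar ratio and no more. For Sftpc these were Cxcl15, a chemokine of lung epithelium with 1820 RPKM at P28 and 1012 at P07, and S100g, a calcium-binding protein with 197 and 107. S100g and the ferritin heavy chain gene Fth1 (196 and 105) were closest to Sftpd. H2-Aa, an MHC class II gene (215 and 147), and Hc, complement C5 (276 and 193), were closest to Sftpb. Lars2, a mitochondrial tRNA synthetase (981 and 424), and Cyp2f2, a club cell cytochrome P450 (343 and 166), were closest to Sftpa1. Napsa lay closest to Scgb3a2, a secretoglobin (302 and 277), and Rps27rt (131 and 120). Ctsh lay closest to the ribosomal protein genes Rpl11 (103 and 125) and Rpl32 (121 and 146).

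Of 15 other cathepsins, aspartic proteases and their inhibitors, 11 reached 1 RPKM and none was called 2-fold apart with the pseudocount of 1. The median log2 ratio was 0.09. Ctsc, cathepsin C, had 73.6 RPKM at P28 and 58.1 at P07, a ratio of 1.27 (1.19 to 1.35). The cathepsin inhibitor gene Cst3, cystatin C, had 56.3 and 41.9, a ratio of 1.34 (1.2 to 1.5). Ctsz and Ctsa, both carboxypeptidases, had ratios of 0.811 (0.693 to 0.949) and 0.762 (0.582 to 0.996). The 2 proteases studied stood above all of them in level, since the highest of the list reached 73.6 RPKM at P28 and 58.1 at P07. Pgc, pepsinogen C, another aspartic protease made by AT2 cells, had 1.41 RPKM at P28 and 3.53 at P07, a ratio of 0.4 (0.252 to 0.624). The pseudocount of 1 kept its log2 ratio at -0.91, and it was called lower with a pseudocount of 0.1 or with the same total. Of 9 collectins and saposin-like genes, 8 were in the table and 3 reached 1 RPKM, none 2-fold apart. The most abundant was Psap, the prosaposin precursor, with 7.51 RPKM at P28 and 6.07 at P07.

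Most genes of the lamellar body and of surfactant lipid lay within 2-fold. Of 17 genes, 16 reached 1 RPKM, 2 were at least 2-fold higher, 0 were lower, and the median log2 ratio was 0.12. Those higher were Scd1, stearoyl-CoA desaturase (936 RPKM at P28 and 255 at P07), and Prdx6, a peroxiredoxin with phospholipase activity (52.8 and 23.8). Scd1 was higher also with the same total, and Prdx6 was not. Lamp3, a lamellar body membrane protein, had 334 and 227 RPKM, and Fasn, fatty acid synthase, 51.8 and 31.5. Abca3, the transporter that loads phospholipid into lamellar bodies, had 65.1 RPKM at P28 and 61.7 at P07. Relative to Abca3, Sftpc was higher by 1.71-fold at P28 (1.64 to 1.78), Sftpa1 by 2.23-fold (2.13 to 2.32) and Sftpb by 1.37-fold (1.31 to 1.43). For Napsa that value was 1.04 with an interval of 0.970 to 1.12, and for Ctsh it was 0.780 (0.727 to 0.836).

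Of 19 genes that fold, check and sort the surfactant precursors, all reached 1 RPKM and none was called 2-fold apart with the scaling as deposited and the pseudocount of 1. The median log2 ratio was -0.02. Dnajb9, an ER co-chaperone that binds misfolded SP-C precursor, had 11.9 RPKM at P28 and 5.57 at P07, a ratio of 2.14 (1.76 to 2.61) and a log2 ratio of 0.97. That ratio passed 2-fold with a pseudocount of 0.1 (1.08), with the median of all genes set to 0 (1.06) and with equal upper quartiles (1.01). Nedd4, a ubiquitin ligase of the family that acts on the SP-C precursor, had 42.6 and 78.8 RPKM, a ratio of 0.541 (0.511 to 0.573), and was called lower with the same total (log2 ratio -1.26). Its relative Nedd4l had 10.1 and 6.73, and Sel1l, part of the ER degradation machinery, 15.4 and 20.3.

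Of 21 regulators of surfactant genes, 20 reached 1 RPKM and none was called 2-fold apart, except Gata6, lower with the same total (log2 ratio -1.08). Their median log2 ratio was -0.09, beside -0.08 over all genes. Nkx2-1, the lineage factor that binds surfactant promoters, had 47.5 RPKM at P28 and 60.1 at P07, a ratio of 0.790 (0.749 to 0.833). Cebpa had 16.1 and 12.5 RPKM, a ratio of 1.29 (1.16 to 1.44). Gata6 had 4.74 and 8.60, the glucocorticoid receptor gene Nr3c1 6.36 and 9.64, and Srebf1, a regulator of lipid synthesis, 6.49 and 8.98. Foxa1 and Foxa2 had ratios of 1.24 (1.06 to 1.44) and 1.14 (0.902 to 1.44). Of 10 genes of surfactant pool size and clearance, 6 reached 1 RPKM and none was called 2-fold apart with the pseudocount of 1. Sirpa, a receptor on phagocytes that binds surfactant collectins, had 0.391 RPKM at P28 and 1.04 at P07, a ratio of 0.376 (0.202 to 0.680), and was called lower with a pseudocount of 0.1. Adgrf5, a receptor that limits the surfactant pool, was the most abundant, with 43.3 RPKM at P28 and 34.1 at P07.

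**Figure D4:**
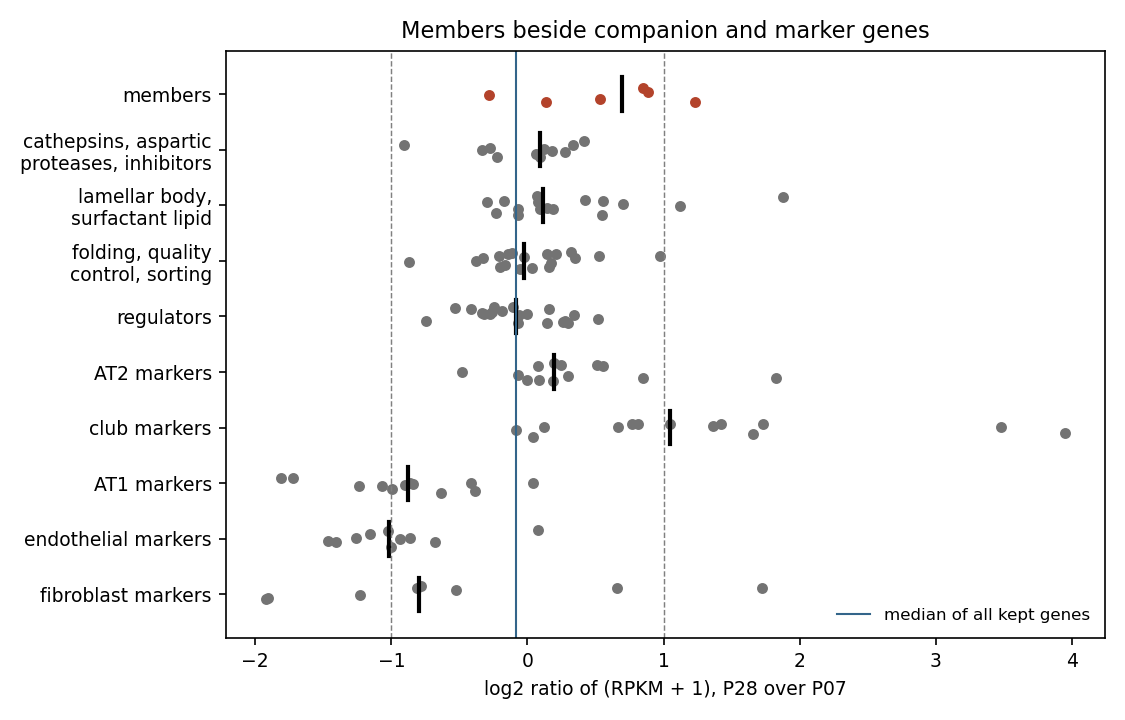
Log2 ratio of (RPKM + 1), P28 over P07, of the members (red) and of genes of the companion and marker lists (grey), for measured genes. Thick bars mark list medians, the vertical line the median of all such genes, and dashed lines 2-fold. The members' median of 0.69 lies between the club marker median of 1.05 and the AT2 marker median of 0.20, and the regulators lie around the median of all genes.

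The labelled cell type was checked against AT2 markers other than the members. All 13 were measured, with a summed level of 10552 RPKM at P28 and 5189 at P07. The most abundant were Lyz2, lysozyme (5809 and 1635), Cxcl15 and the phosphate transporter Slc34a2 (1115 and 978). Of the 13, 1 (Lyz2) was at least 2-fold higher and none lower.

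Club cell markers were high in both libraries and higher at P28. The 15 summed to 20470 RPKM at P28 and 8082 at P07, 14.3% and 7.43% of the total, with Scgb1a1, the club cell secretory protein, at 18104 and 6764. Of the 13 that reached 1 RPKM, 7 were at least 2-fold higher (5 with the same total) and none lower. Cbr2, a carbonyl reductase, had 1170 and 688 RPKM, and Scgb3a2 302 and 277. Each of the 6 genes was lower per unit of Scgb1a1 at P28, from Sftpa1 at 0.878 (0.863 to 0.892) and Sftpc at 0.674 (0.667 to 0.682) to Ctsh at 0.307 (0.290 to 0.326). The part of club cell RNA in the values of Sftpa1, Sftpb and Sftpd was not tested.

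Markers of AT1, endothelial and erythroid cells were mostly lower at P28, and those of other cells were mixed. AT1 markers summed to 262 RPKM at P28 and 466 at P07, endothelial markers to 28.2 and 58.6, fibroblast markers to 17.1 and 38.1, and erythroid markers to 1.73 and 47.9. Of those that reached 1 RPKM, 4 of 12 AT1, 6 of 10 endothelial and 6 of 6 erythroid markers were called lower and none higher. Over all measured genes 1.96% were called lower. With a pseudocount of 5 the 3 counts were 3, 0 and 3. Of 8 fibroblast markers that reached 1 RPKM, 3 were called lower and 1 (Inmt, 2.31 RPKM at P28 and 0 at P07) higher. Dcn, another fibroblast marker, had a ratio of 2.75 (1.55 to 5.16). Ciliated cell markers summed to 232 and 234 RPKM, most of it from Sec14l3 (103 and 117) and Tppp3 (45.7 and 53.1), while 6 of the 9 had a log2 ratio above 0, with a median of 0.25. Macrophage and leukocyte markers summed to 15.7 and 13.2 RPKM, most of it from Plet1 (9.85 and 7.23). Of the 17, 4 reached 1 RPKM, among them Cd79b (3.02 and 2.84) and Csf1r (1.49 and 2.23). Marco, C1qa, C1qb, C1qc, Siglecf and Adgre1 were at 0 in both libraries. The part of these cells in the ratios of the 6 genes was not tested.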

How the data were processed

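RNA of sorted mouse type II pneumocytes was made into libraries with a tagmentation kit and read from both ends, per the labels' protocols. TopHat, TopHat2 2.0.9 and the build GRCm38 (mm10) appear, with no role given, per the submitters' processing notes. RPKM values were deposited by the authors as 1 column for each sample, per the file headers. The sources used here do not give the program, annotation or filters behind them. Both columns were used.

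Low RPKM values times transcript length lay within 0.05 of a whole multiple of 1 step for 58.2% of 761 single-length genes at P28 and 60.7% of 821 at P07, where chance gives 10%. The table also holds 128 and 100 values between 0 and 0.001, below the worth of 1 read, so its values are partly estimates. Read numbers use the mean GENCODE transcript length and are approximate. Intervals are exact, Clopper-Pearson for 1 gene and conditional for a ratio of 2 genes. Without molecular identifiers, PCR copies count as reads.

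Calls use log2 of (RPKM + 1) at P28 over P07 and a 2-fold line, for genes that reach 1 RPKM in either library. The pseudocount understates the difference of low genes. There was no test. Procedures were tried on simulated counts with counting error only, of genes with 1 transcript length. That does not cover genes with several lengths, as the members are. Python 3.11.15, numpy 2.4.6, scipy 1.17.1 and pandas 2.3.3 were used.

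Members and lists were chosen with earlier results of these data known. Named were all members, in each pathway list the 4 genes reaching 5 RPKM whose log2 ratio was farthest from 0, in each marker list the 3 most abundant and those at 0, and for each member the 2 genes closest in ratio. The 3 most abundant genes of the AT1, ciliated, endothelial, fibroblast and erythroid lists are mostly given within the sums. Pgc, Nkx2-1, Foxa1, Foxa2, Abca3, Mbl1, Sirpa, Inmt, Dcn, Xist and Ddx3y were named after their values were seen. Alternatives changed the pseudocount, scaling, filter, total, denominator gene and transcript length.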

Additional observations from a re-analysis of the deposited data

How the results depend on the processing

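With 1 library per age no replicate could be left out. No paired analysis was possible because each age has 1 library. Pseudocounts of 0.1 and 5 left each member's log2 ratio within its counting interval. Log2 ratios with the same total were 0.84 for Sftpa1, 0.14 for Sftpb, 0.46 for Sftpc, 0.49 for Sftpd, -0.26 for Napsa and -0.67 for Ctsh, with 0 members called higher and a median of 0.30. With the median log2 ratio of all genes set to 0 they were 1.31 for Sftpa1, 0.61 for Sftpb, 0.93 for Sftpc, 0.97 for Sftpd and -0.20 for Ctsh, with a median of 0.77. With equal upper quartiles they were 1.27 for Sftpa1, 0.57 for Sftpb and 0.89 for Sftpc, with a median of 0.73. With equal totals outside the 10 most abundant genes of each library they were 1.2 for Sftpa1, 0.50 for Sftpb and 0.82 for Sftpc. The median was 0.66. Scalings move all genes together by construction.

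Without ribosomal, mitochondrial and small noncoding RNA the 6 members held 20.3% of the total at P28 and 14.6% at P07, and Sftpc 17.6% and 12.6%. Without Scgb1a1 they held 22.2% and 15.1%, and Sftpc 19.3% and 13.1%. With Abca3 in place of Sftpc as the denominator, the ratio at P28 over that at P07 was 2.23 for Sftpa1, 1.37 for Sftpb, 1.75 for Sftpd, 1.04 for Napsa and 0.780 for Ctsh. Sftpb thus changed direction, while the interval of Napsa, 0.970 to 1.12, included 1. Sftpc itself was 1.71-fold higher relative to Abca3.

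Over all genes, calls were 226 higher and 530 lower with a pseudocount of 0.1, 39 and 34 with 5, 65 and 443 with the same total, and 73 and 93 among genes reaching 5 RPKM. Taking the longest or shortest transcript length kept every member's interval on its side of 1. Of 168 counts of list genes called under the alternatives, 150 stayed within 1.5 times the value given. Most of the values given were 0, and a 0 that stayed 0 is among the 150. Of 36 log2 ratios of the members under the alternatives, 17 left the counting interval, all of them under another scaling. The members exceeded 100 RPKM, so the pseudocounts could move their ratios little. At the mean transcript length each member had about 1800 reads or more per library, and at the shortest length the numbers are smaller. The spread between replicates was not measured.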
